A study of Mus musculus with 8 samples.

Results

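Glucocorticoid-responsive genes and metallothioneins were measured in the whole blood of mice by 12 probe sets of an Affymetrix array, out of 45037 probe sets tested. The 12 were taken by ID from a list that named them, through the array maker's annotation, as Tsc22d3, Fkbp5 (2 probe sets), Per1, Sgk1, Klf9 (2 probe sets), Dusp1, Cebpd, Mt1, Mt2 and Pdk4, together 10 genes. All 12 had a value on all 8 arrays and none was removed as dim before the test. Whether each was detected above background on each array was not assessed. In the hypoxia group (4 arrays), mice were kept in a closed chamber at normal pressure in which oxygen was brought down from 21% to 8% within 14 days, and blood was taken from the vena cava after 15 days. In the control group (4 arrays), mice were kept under room conditions and blood was taken from the same vein. RNA was extracted from 500 µl of blood in the hypoxia group and from 100 µl in the control group, so an effect of hypoxia and one of blood volume cannot be told apart. By these descriptions only the hypoxia group was kept in the closed chamber, and no day of blood draw is given for the control group. Effects of housing and of sampling day can therefore not be told apart from one of hypoxia either. The labels used here give no strain, sex, age or time of day for either group. They also leave unsaid whether the 8 arrays came from 8 animals, so the spread behind each p-value may be partly technical. Fkbp5 and Klf9 were each measured by 2 probe sets, called the first and the second here in the numerical order of their IDs.

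Glucocorticoids act through the glucocorticoid receptor, a transcription factor that stays in the cytoplasm with HSP90 until it binds hormone and then enters the nucleus. There it binds inverted repeats of a short motif and raises genes such as Tsc22d3, Fkbp5, Per1, Sgk1, Klf9, Dusp1 and Pdk4. Several of these genes act back on the response: FKBP51, the product of Fkbp5, lowers the receptor's affinity for hormone, and the products of Tsc22d3 and Dusp1 dampen inflammatory signalling. Metallothioneins are small cysteine-rich proteins that bind zinc and copper. Their genes are raised by the metal sensor MTF1 through metal response elements, and also by glucocorticoids and by oxidative stress.

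The sequences around the RefSeq starts of 5 of these genes (build GRCm38.p6) are shown because hypoxia and control arrays did not overlap in level for Tsc22d3, Sgk1, Mt1 and Mt2 and because 1 hypoxia array of Dusp1 stood apart from the others. For Tsc22d3 and Sgk1, which have several starts, the window printed was picked after the search for its glucocorticoid receptor motif, so the shares of all windows given below do not measure how unusual it is. Each window holds 250 bases before the start and 50 bases after it, 5′ to 3′ on the gene's own strand. Capitals mark matches, on either strand, to the glucocorticoid receptor hexamer AGAACA, to the metal response element core (TGCACNC or TGCGCNC), to the cyclic AMP response element TGACGTCA and to the E-box CACGTG. The windows lie at chrX:140600473-140600772 (minus strand) for Tsc22d3, chr10:21993640-21993939 (plus strand) for Sgk1, chr17:26508423-26508722 (minus strand) for Dusp1, chr8:94178839-94179138 (plus strand) for Mt1 and chr8:94172368-94172667 (plus strand) for Mt2.
Tsc22d3: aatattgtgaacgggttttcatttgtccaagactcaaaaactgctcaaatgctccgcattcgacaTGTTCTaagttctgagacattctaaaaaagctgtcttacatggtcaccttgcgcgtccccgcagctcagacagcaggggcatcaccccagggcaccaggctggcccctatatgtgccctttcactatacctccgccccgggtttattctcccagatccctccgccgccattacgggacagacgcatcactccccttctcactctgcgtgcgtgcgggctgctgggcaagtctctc
Sgk1: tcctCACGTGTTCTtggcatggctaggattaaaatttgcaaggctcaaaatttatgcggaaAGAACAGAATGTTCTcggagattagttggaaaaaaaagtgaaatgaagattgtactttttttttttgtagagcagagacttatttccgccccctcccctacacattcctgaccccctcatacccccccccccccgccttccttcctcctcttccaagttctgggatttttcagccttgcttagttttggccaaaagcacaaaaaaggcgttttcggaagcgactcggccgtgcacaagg
Dusp1: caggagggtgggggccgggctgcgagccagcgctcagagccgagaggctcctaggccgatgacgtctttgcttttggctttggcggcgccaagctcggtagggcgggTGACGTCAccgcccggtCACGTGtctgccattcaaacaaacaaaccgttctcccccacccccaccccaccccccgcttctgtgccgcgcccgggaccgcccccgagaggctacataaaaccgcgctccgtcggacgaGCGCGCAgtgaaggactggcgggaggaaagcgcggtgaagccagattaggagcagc
Mt1: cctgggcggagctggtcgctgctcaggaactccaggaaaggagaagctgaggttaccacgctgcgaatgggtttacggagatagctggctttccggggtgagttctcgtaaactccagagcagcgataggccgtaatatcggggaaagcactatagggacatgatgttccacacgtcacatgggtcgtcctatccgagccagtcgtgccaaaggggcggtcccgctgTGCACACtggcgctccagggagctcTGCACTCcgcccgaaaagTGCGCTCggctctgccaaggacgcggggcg
Mt2: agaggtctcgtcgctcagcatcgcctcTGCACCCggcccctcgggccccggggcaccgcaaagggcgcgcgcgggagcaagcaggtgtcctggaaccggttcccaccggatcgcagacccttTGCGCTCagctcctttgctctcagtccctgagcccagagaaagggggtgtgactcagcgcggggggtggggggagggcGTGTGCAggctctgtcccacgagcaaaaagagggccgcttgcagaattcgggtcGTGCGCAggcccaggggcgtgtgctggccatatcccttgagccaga

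RefSeq gave 17 start windows for 9 of the 10 genes (Tsc22d3 has 3 and Sgk1 has 6), and Cebpd was not matched. Any window on a chromosome that holds none of the 10 genes was left out of this count. The probe sets do not tell which start a transcript came from. In the Sgk1 window shown, 2 hexamers formed an inverted repeat with 3 bases between them, from base -189 to base -175 counted from the start. An exact repeat of this kind was present in 3 of 32851 RefSeq windows of this length (0.00913%). A further hexamer of that window overlapped an E-box, so that their capitals run together, and the 3 bases inside the repeat are also in capitals. The Tsc22d3 window held 1 hexamer, from -185 to -180, a motif present in 19.0% of all windows. Metal response element cores numbered 4 in the Mt2 window and 3 in the Mt1 window, and at least 1 was present in 25.7% of all windows. The annotated Mt1 gene begins upstream of the start its window is set on, and which start the blood transcript uses is unknown here, so the Mt1 count and positions hold for this window only. The Dusp1 window held a cyclic AMP response element from -143 to -136 (present in 1.79% of all windows), an E-box from -126 to -121 (7.15%) and 1 metal response element core across the start. E-boxes were also present in the Fkbp5 window and in 1 Per1 window, metal response element cores in another Per1 window and another Sgk1 window, and single hexamers in 2 other Sgk1 windows. These matches describe the letters of the windows and do not show binding.

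**Figure D1:**
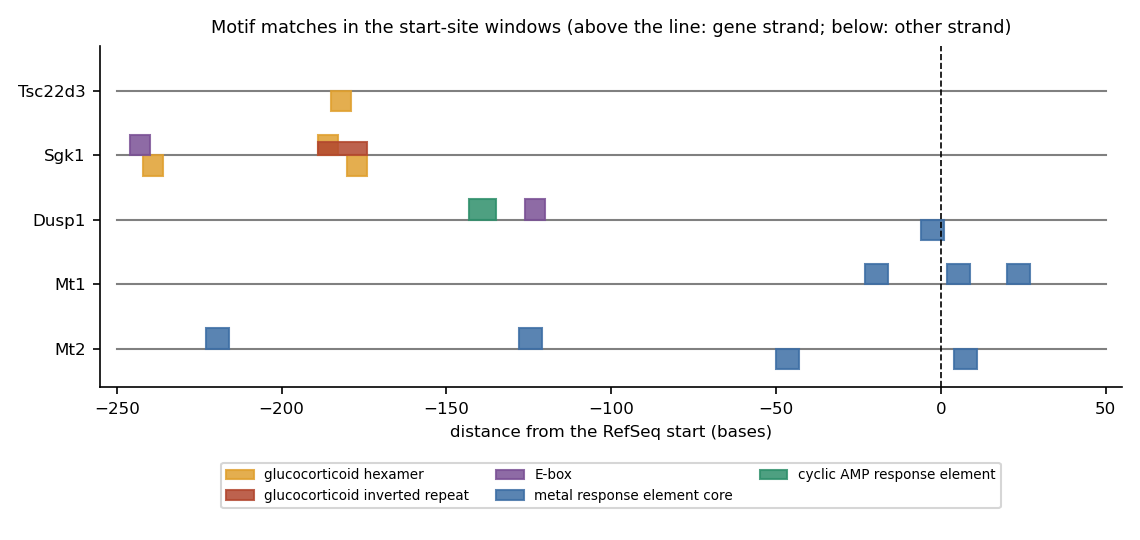
Position of motif matches in the start windows of Tsc22d3, Sgk1, Dusp1, Mt1 and Mt2, in bases from the RefSeq start (dashed line), with matches on the gene's strand above each line and those on the other strand below. The Sgk1 window holds the inverted repeat of glucocorticoid receptor hexamers, and the Mt1 and Mt2 windows hold 3 and 4 metal response element cores.

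The values are deposited linear intensities, scaled by the authors' processing to a common mean: trimmed by 2% at both ends, it was 500 on all 8 arrays. Array medians were 230 to 245 in hypoxia and 163 to 202 in control. Log2 values correlated across probe sets at 0.673 to 0.718 among hypoxia arrays, 0.769 to 0.796 among control arrays and 0.631 to 0.707 between the groups. The spike-in hybridization controls were brighter on hypoxia arrays by 0.94 log2 units (exact two-sided permutation p = 0.0286, the smallest that 4 against 4 arrays allow), and the median difference of all probe sets was 0.19 log2 units. The files do not pair the other probe sets with genes, so the marker lists of blood cell types and the lists of further pathway genes were not analysed here. Of the blood cell markers, Tfrc (the transferrin receptor, high in young red cells) could be read from a control probe set at its 3′ end, with intensities of 751 to 1863 in hypoxia and 194 to 484 in control, and its part in the results below was not tested. In whole blood, fewer cells of a type and less RNA per cell cannot be told apart.

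Of the 12 probe sets, Mt2 rose and Tsc22d3 fell, and the other 10 did not pass the test (limma, adjusted p under 0.05 over all 45037 probe sets). Across the array 6.25% of probe sets were called, 3.65% higher and 2.6% lower, so 1 call in each direction among 12 is a small count. The groups did not overlap for 4 of the 12 probe sets, against 20.9% of all probe sets: Mt1 and Mt2 were higher on every hypoxia array than on any control array (10.5% of all probe sets were) and Tsc22d3 and Sgk1 were lower (10.5%). The median difference over the 12 was 0.11 log2 units, with 6 positive and 6 negative values, beside the median of 0.19 over all probe sets. The 10 glucocorticoid-responsive probe sets had 4 positive and 6 negative differences and a median of -0.33. Both metallothioneins differed upwards, by 3.31 and 4.55 log2 units.

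**Figure D2:**
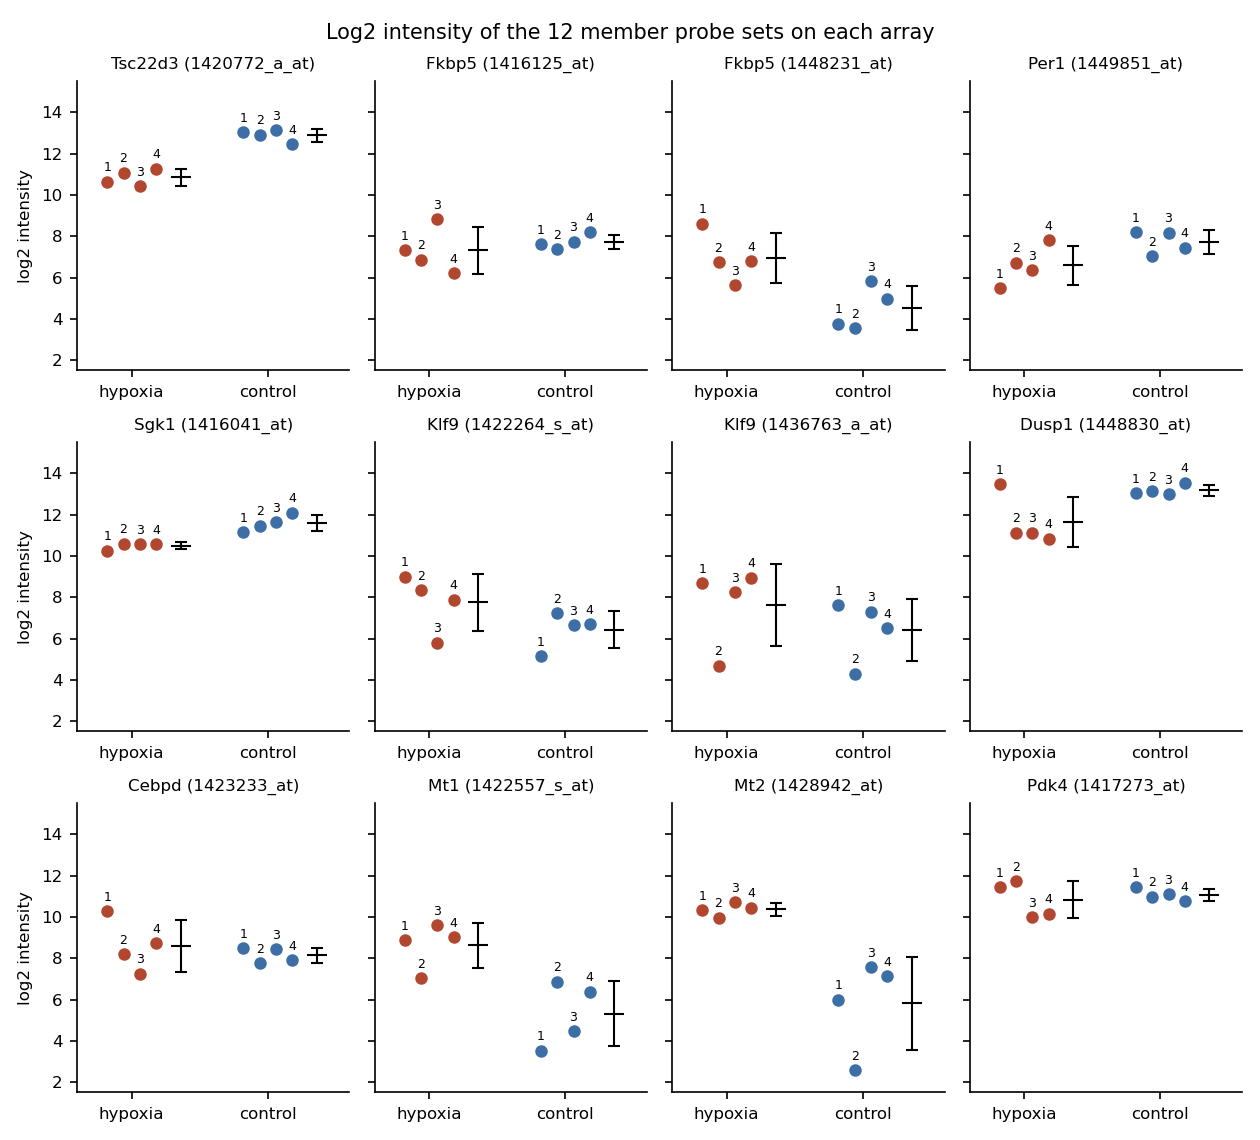
Log2 intensity of each of the 12 probe sets on the 4 hypoxia arrays (left, red) and the 4 control arrays (right, blue), numbered as in the labels, with mean and SD as bars. Hypoxia and control do not overlap for Tsc22d3, Sgk1, Mt1 and Mt2, and hypoxia array 1 lies with the controls for Dusp1.

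Tsc22d3 encodes GILZ, the glucocorticoid-induced leucine zipper, which binds NF-kB and AP-1 and restrains inflammatory gene activity. Its probe set 1420772_a_at had intensities of 1599, 2164, 1364 and 2466 in hypoxia arrays 1 to 4, against 8360, 7780, 9078 and 5612 in control arrays 1 to 4. Every hypoxia array was below every control array. The log2 level was 10.85 ± 0.39 in hypoxia and 12.89 ± 0.30 in control (SD, n = 4 each), a difference of -2.04 (SE 0.38, 95% interval -2.90 to -1.18, adjusted p = 0.0240), or 4.11-fold lower in hypoxia. The probe set was bright in both groups, at the 91.5 to 94.8 percentile of its array in hypoxia and the 97.1 to 98.4 percentile in control. Relative to the median of all probe sets the difference was -2.23. Leaving out single arrays moved the difference between -2.18 and -1.89 and the adjusted p between 0.0340 and 0.0741, over the threshold without hypoxia 1, hypoxia 3, control 1, control 2 or control 3. The authors' deposited table listed a log2 difference of -2.41 with a q-value of 0%.

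Sgk1 encodes the serum- and glucocorticoid-regulated kinase, which controls ion channels and transporters and acts beside AKT. At 1416041_at the intensities were 1217, 1547, 1526 and 1532 in hypoxia arrays 1 to 4, against 2271, 2824, 3168 and 4376 in control arrays 1 to 4. The groups did not overlap, and hypoxia arrays 2 to 4 were nearly equal. The log2 level was 10.50 ± 0.17 in hypoxia and 11.58 ± 0.39 in control (SD, n = 4 each), a difference of -1.08 (SE 0.36, 95% interval -1.91 to -0.26) that missed the threshold (adjusted p = 0.108). It passed when the arrays were centred on the hybridization controls (-2.02, adjusted p = 0.0188), and at the same size when dim probe sets were left out (adjusted p = 0.0233) or with a trended robust prior (adjusted p = 0.00715). It also passed with an offset of 100 (-1.03, adjusted p = 0.0307). The range over all alternatives was 0.00715 to 0.210. In the authors' deposited table the log2 difference of Sgk1 was -1.47 with a q-value of 0%. Counting that table, 5 of the 19 alternatives for Sgk1 passed, and 0 of the 8 that left out a single array. The inverted repeat in the Sgk1 window above is a feature of the sequence, and its part in this difference was not tested.

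Dusp1 encodes MAP kinase phosphatase 1, which switches off p38 and JNK and is also an immediate-early gene of stimulated cells. Its probe set 1448830_at read 11374, 2236, 2251 and 1842 in hypoxia arrays 1 to 4, against 8374, 8944, 8114 and 12060 in control arrays 1 to 4. Hypoxia array 1 lay among the controls, and the other 3 hypoxia arrays lay below all controls. With all arrays the difference was -1.53 log2 units (SE 0.61, 95% interval -2.93 to -0.13, adjusted p = 0.164). Without hypoxia array 1 it was -2.14 (SE 0.37, adjusted p = 0.0433). It passed as well after centring on the hybridization controls (-2.46, adjusted p = 0.0428), with an offset of 100 (-1.49, adjusted p = 0.0471) and with a trended robust prior (adjusted p = 0.0480), and the adjusted p over all alternatives ran from 0.0428 to 0.284. The authors' deposited table gave Dusp1 a log2 difference of -1.70 and a q-value of 0%. Counting that table, 5 of the 19 alternatives for Dusp1 passed, and 1 of the 8 that left out a single array. The SD of the log2 values of Dusp1 was 1.23 in hypoxia and 0.26 in control.

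Per1 encodes a repressor of the circadian clock whose transcription is also raised by glucocorticoids. At 1449851_at the intensities were 44.5, 106, 81.6 and 223 in hypoxia arrays 1 to 4, against 294, 132, 288 and 174 in control arrays 1 to 4. Hypoxia arrays 1 to 3 lay below all controls and hypoxia array 4 lay among them. The difference of -1.13 log2 units (SE 0.56, 95% interval -2.42 to 0.16) had an adjusted p of 0.251. Of the 17 alternatives that fitted it, only centring on the hybridization controls brought it past the threshold (-2.06, adjusted p = 0.0354). The labels used here give no hour of sampling for this clock gene.

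Fkbp5 encodes FKBP51, a co-chaperone of HSP90 that feeds back on the glucocorticoid receptor, and it was measured by 2 probe sets with unlike differences. At the first probe set the intensities were 161, 117, 458 and 73.5 in hypoxia arrays 1 to 4, against 195, 165, 213 and 295 in control arrays 1 to 4. At the second they were 392, 107, 49.5 and 111 in hypoxia arrays 1 to 4, against 13.5, 11.7, 57.1 and 31.3 in control arrays 1 to 4. Hypoxia array 3 was the brightest of all arrays at the first probe set and the dimmest of its group at the second. The log2 differences were -0.42 (SE 0.58, 95% interval -1.75 to 0.92, adjusted p = 0.697) at the first and 2.42 (SE 0.76, 95% interval 0.69 to 4.14, adjusted p = 0.0916) at the second. At the second the 4 control values lay at the 8.38 to 22.5 percentile of their arrays, and with an offset of 100 that difference was 0.91. The log2 ratio of the second to the first within each array was -0.36 ± 1.98 in hypoxia and -3.20 ± 0.91 in control (SD, n = 4 each), a difference of 2.84 (SE 1.09, exact two-sided permutation p = 0.0571, adjusted p = 0.171 over 3 such ratios). The authors' deposited table listed the first probe set alone, with a log2 difference of 0.30, opposite in sign to the one fitted here, and a q-value of 15.2%. The direction of Fkbp5 was therefore not settled by these probe sets.

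Klf9 encodes a Krüppel-like zinc finger factor that glucocorticoids and thyroid hormone raise. At the first probe set the intensities were 510, 322, 55.7 and 236 in hypoxia arrays 1 to 4, against 35.5, 151, 101 and 104 in control arrays 1 to 4. At the second they were 408, 25.7, 303 and 497 in hypoxia arrays 1 to 4, against 196, 19.7, 157 and 90.2 in control arrays 1 to 4. At each probe set 3 hypoxia arrays lay above all controls, but the array that did not was hypoxia 3 at the first and hypoxia 2 at the second. The differences were 1.32 (SE 0.76, adjusted p = 0.316) and 1.21 log2 units (SE 1.09, adjusted p = 0.528). The ratio of the second to the first differed by -0.10 between hypoxia and control, with a wide SE of 1.72 (exact permutation p = 0.914), so a difference between the probe sets was not detectable. Control array 2 was the brightest control at one probe set and the dimmest at the other, so the 2 probe sets did not rank the arrays alike. The first has an ID with the suffix _s_at, which marks a set that can match transcripts of more than 1 gene. After centring on the hybridization controls the differences of Klf9 were 0.38 and 0.28.

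Cebpd encodes C/EBP delta, a leucine zipper transcription factor of the acute phase response and of myeloid cells. Its probe set 1423233_at read 1233, 293, 152 and 422 in hypoxia arrays 1 to 4, against 359, 218, 349 and 238 in control arrays 1 to 4. Hypoxia array 1 was the brightest of all 8 arrays and hypoxia array 3 the dimmest. The log2 difference was 0.46 (SE 0.64, 95% interval -1.0 to 1.91, adjusted p = 0.695). It turned to -0.09 without hypoxia array 1 and to -0.48 after centring on the hybridization controls. The authors' deposited table listed 0.51 with a q-value of 16.6%.

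Pdk4 encodes pyruvate dehydrogenase kinase 4, which shuts the entry of pyruvate into the citric acid cycle and is high in fasting. At 1417273_at the intensities were 2782, 3437, 1011 and 1144 in hypoxia arrays 1 to 4, against 2790, 2035, 2222 and 1724 in control arrays 1 to 4. Hypoxia arrays 3 and 4 lay below all controls and hypoxia array 2 lay above them. The log2 difference was -0.24 (SE 0.50, 95% interval -1.39 to 0.91, adjusted p = 0.800), and the SD was 0.89 in hypoxia and 0.29 in control. The interval allows a difference of more than 1 log2 unit downwards. The authors' deposited table listed -0.25 with a q-value of 16.6%.

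Mt2 and Mt1 encode the widely expressed metallothioneins, which bind and buffer zinc and copper. Their genes are neighbours on chromosome 8, Mt2 at 94172618 to 94173567 and Mt1 at 94178883 to 94180327 (GRCm38.p6), with 5315 bases between them. Mt2 had intensities of 1294, 1004, 1684 and 1391 in hypoxia arrays 1 to 4, against 63.4, 5.94, 191 and 139 in control arrays 1 to 4. Every hypoxia array was above every control array, and the hypoxia arrays were close to one another. On the log2 scale Mt2 was at 10.37 ± 0.31 in hypoxia and 5.81 ± 2.26 in control (SD, n = 4 each), a difference of 4.55 (SE 1.01, 95% interval 2.25 to 6.86, adjusted p = 0.0393). Within its array Mt2 stood at the 87.3 to 92.9 percentile in hypoxia and at the 3.63 to 48.4 percentile in control.

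The size of the Mt2 rise was uncertain because the control values were dim and scattered, down to 5.94 in control array 2. The fitted difference was 3.47 without control array 2, 3.95 with an offset of 16 and 2.93 with an offset of 100 (adjusted p = 0.000141). The authors' deposited table, whose differences are not compared in size with those fitted here, listed 2.09 with a q-value of 0%. Leaving out any array other than control 2 raised the adjusted p of Mt2 to between 0.0599 and 0.0890, and without control array 2 it was 0.0403. In every setting fitted here, each remaining hypoxia array of Mt2 lay above each remaining control array.

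Mt1 had intensities of 466, 130, 770 and 515 in hypoxia arrays 1 to 4, against 11.5, 117, 22.2 and 83.5 in control arrays 1 to 4. The groups did not overlap, though hypoxia array 2 was close above control array 2, and they overlapped under 3 of the 5 scalings (quantile normalization, median centring and centring on the hybridization controls). The difference of 3.31 log2 units (SE 0.87, 95% interval 1.32 to 5.29) just missed the threshold (adjusted p = 0.0597). By rank within the array the groups overlapped, with hypoxia array 2 at the 33.2 percentile and control array 2 at the 36.5 percentile. Mt1 passed without hypoxia array 2 (3.84, adjusted p = 0.0479), with an offset of 16 (2.76, adjusted p = 0.0354) or 100 (1.75, adjusted p = 0.00920) and with a trended robust prior (adjusted p = 0.0180), within a range of 0.00920 to 0.152 over the alternatives. The authors' deposited table listed 1.66 with a q-value of 0.0107%. Counting that table, 5 of the 18 alternatives for Mt1 passed, and 1 of the 8 that left out a single array. The ID of the Mt1 probe set has the suffix _s_at, which marks a set that can match transcripts of more than one gene, so signal from near-identical metallothionein copies in it cannot be told apart.

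The log2 ratio of Mt2 to Mt1 within each array was 1.75 ± 0.81 in hypoxia and 0.50 ± 3.36 in control (SD, n = 4 each). The difference of 1.25 (SE 1.73, exact permutation p = 0.686) was smaller than its error, and it was -0.35 without control array 2. An unequal change of the 2 metallothioneins was thus not detectable with these arrays.

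**Figure D3:**
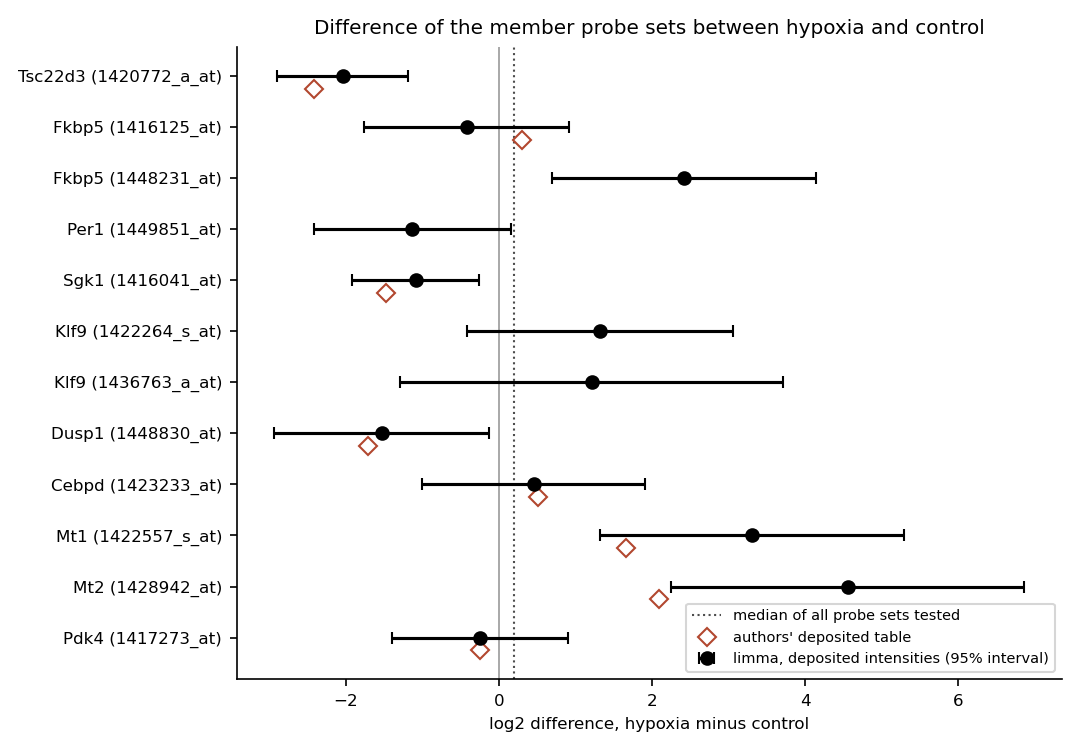
Log2 difference, hypoxia minus control, of the 12 probe sets (points, with 95% intervals of the limma fit) beside the median of all probe sets (dotted line) and the authors' deposited differences (open diamonds, 8 probe sets). Mt2 at 4.55 and Mt1 at 3.31 lie to the right, Tsc22d3 at -2.04 to the left, and most other intervals reach 0.

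Hypoxia arrays varied more among themselves than control arrays at several of the glucocorticoid-responsive probe sets. Over all probe sets they also correlated less, at 0.673 to 0.718 against 0.769 to 0.796 among control arrays. The wider spread can therefore not be called particular to these genes. The ratio of the log2 SDs, hypoxia over control, was 4.69 for Dusp1, 3.40 for Cebpd, 3.19 for the first Fkbp5 probe set and 3.08 for Pdk4, and was 0.42 for Sgk1 and 0.14 for Mt2. At the remaining members it ran from 0.70 (Mt1) to 1.70 (Per1). These ratios are descriptions of 4 arrays each, and the ratio over all probe sets was not computed. Hypoxia array 1 was the brightest hypoxia array for Dusp1, Cebpd, the second Fkbp5 probe set and the first Klf9 probe set, and the dimmest for Per1 and Sgk1. Its Tsc22d3 and Mt2 values lay inside the range of the other hypoxia arrays. At every probe set some array of the 4 is the brightest and some the dimmest. The list alone therefore does not set hypoxia array 1 apart.

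The scaling of the arrays moved the differences: over the whole array the median difference of 0.19 became 0.00 with quantile normalization, -0.15 with median centring, 0.17 relative to Actb and -0.74 relative to the hybridization controls (log2 units). The centrings moved all members by the same amount, whereas quantile normalization moved them unequally, with Sgk1 at -0.86 and Per1 at -1.38. Relative to the median of all probe sets, Tsc22d3 stood at -2.23 as deposited and -2.14 after quantile normalization, and Mt2 at 4.36 and 4.54. Centring on the array median set Tsc22d3 at -2.38 (adjusted p = 0.0231) and Mt2 at 4.21 (adjusted p = 0.0414), quantile normalization set them at -2.13 (adjusted p = 0.0262) and 4.54 (adjusted p = 0.0398), and centring on the hybridization controls set them at -2.97 (adjusted p = 0.0142) and 3.62 (adjusted p = 0.0366). Relative to Actb at its 3′ end, Tsc22d3 was at -2.06 (adjusted p = 0.0487) and Mt2 at 4.53, just over the threshold (adjusted p = 0.0503). Among these 5 scalings Cebpd alone changed sign, to -0.48 on the hybridization control scale. On that scale Per1, Sgk1 and Dusp1 were called lower together with Tsc22d3, while 6061 of the 6653 calls over the whole array were lower. Of the calls over the whole array, 58.3% were higher on the deposited scale, 72.5% relative to Actb, 31.1% with median centring and 8.90% relative to the hybridization controls.

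**Figure D4:**
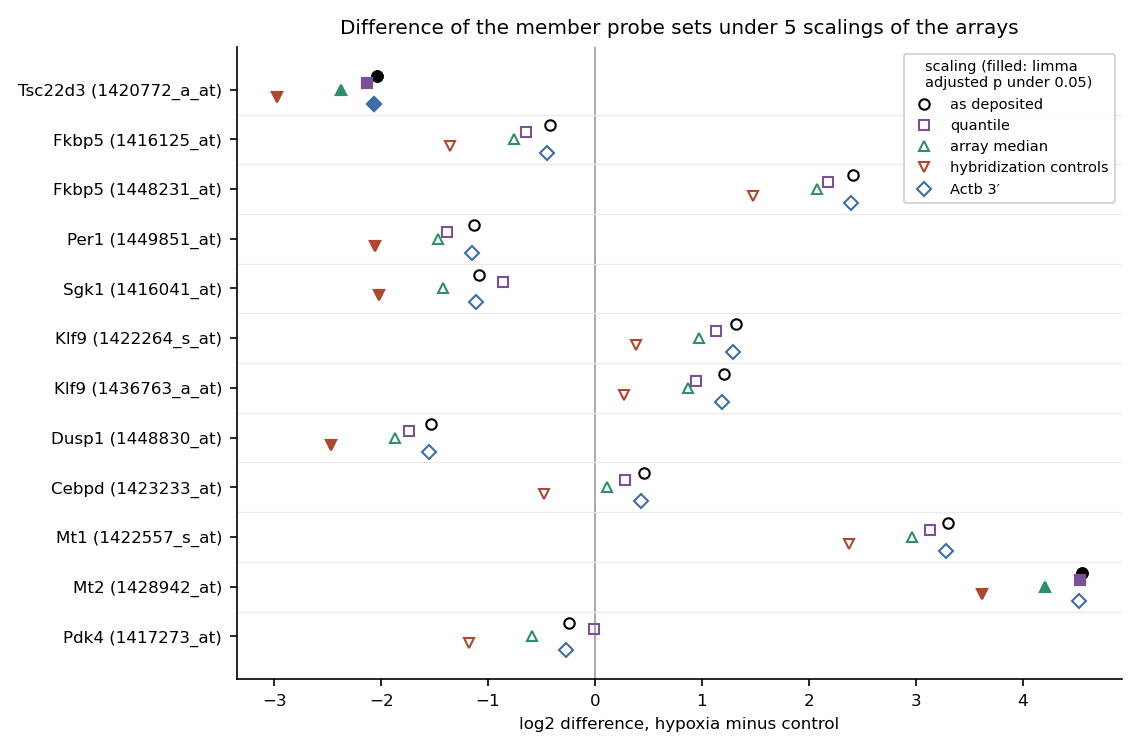
Log2 difference, hypoxia minus control, of each probe set under 5 scalings of the arrays, with filled symbols where the limma adjusted p was under 0.05. Tsc22d3 stays between -2.97 and -2.04 and Mt2 between 3.62 and 4.55, whereas Cebpd lies on both sides of 0.

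The authors' deposited table of a SAM comparison, whose differences do not equal those of the deposited intensities, listed 8 of the 12 probe sets, against 44.2% of all probe sets. Of these 8, Mt1 and Mt2 were higher and Tsc22d3, Sgk1 and Dusp1 were lower with a q-value under 5%, a count of 5 beside 61.7% of all 19916 listed probe sets, so such a q-value was common in that table. Per1, both Klf9 probe sets and the second Fkbp5 probe set were not listed there. Over its 19916 listed probe sets the authors' deposited table had a median log2 difference of -0.18, beside 0.19 over all 45037 here. These are unlike sets of probe sets: without dim probe sets the median here was -0.09. The medians therefore do not tell whether the 2 scales are offset, and the differences are not compared in size.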

How the data were processed

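RNA of mouse whole blood was hybridized to 8 Affymetrix arrays (4 hypoxia, 4 control). The deposited value table gives 1 linear intensity per probe set and array, globally scaled, and of the tools in the submitters' processing notes (GCRMA, RMA, Partek) none is given a role. Per the file headers, the authors' SAM table gives a score, a log2 difference, a fold ratio and a q-value in percent.

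Intensities under 1 were set to 1 (14 values), log2 was taken, 64 control probe sets were set aside, and limma 3.58.1 (R 4.3.3) was run on the other 45037 (eBayes, no covariate) with Benjamini-Hochberg adjustment over all of them. The step was tested on simulated data that gave both groups the SDs of the control arrays, with changes planted only in probe sets over the median level. That test does not cover dim probe sets or a wider spread among hypoxia arrays. Within-array ratios were tested by exact two-sided permutation. The number of arrays limits the precision. The members and lists were chosen with earlier results of these data known. The text names the 12 members. Lists of 5 pathways and 8 blood cell types had been drawn up, but the files do not pair probe sets with genes, so those lists, and their counts, were not run. Motifs were searched in RefSeq start windows.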

Additional observations from a re-analysis of the deposited data

Results flagged for a closer look

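Among 30 groups of 4 arrays (the 12 probe sets and 3 within-array ratios in both groups), Dixon's test at its 95% limit set 3 single arrays apart from their group, and chance alone would set apart about 1.5. For Dusp1, hypoxia array 1 had a log2 level of 13.47, against 10.85 to 11.14 on the other hypoxia arrays. For Sgk1, hypoxia array 1 had 10.25, against 10.58 to 10.60 on the others, a gap that is small beside the difference between the groups. For the second Klf9 probe set, hypoxia array 2 had 4.68, against 8.24 to 8.96 on the others. The cause of these gaps was not tested.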

How the results depend on the processing

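The numbers in the labels gave no pairing: same-numbered arrays had correlations of -0.02 to 0.01 between their deviations from the group means. With the number as a replicate block, limma called 0 probe sets at an adjusted p under 0.05 (10348 at an unadjusted p under 0.05), 0 of them members. The calls over all probe sets, 2816 as deposited, were 6653 after centring on the hybridization controls, 1482 after centring on Actb, 7115 with an offset of 100, 6388 without dim probe sets, 6836 with a trended robust prior and 12287 by q-value in the authors' deposited table, and they were 462 (without control 3) to 2617 (without hypoxia 2) with 1 array left out. The calls among the 12 members, 2 as deposited, were 5 on the hybridization control scale, with an offset of 100 and with a trended robust prior. They were 1 with Actb centring and with array weights, and 0 to 2 with 1 array left out. Without dim probe sets 3 of the 7 members kept were called. Of the 8 members that the authors listed, 5 were called by q-value. Each setting with 5 member calls also called a larger share of all probe sets, so these higher counts are not particular to the members. Reversed signs were found for the first Fkbp5 probe set in the authors' deposited table (0.30), for Cebpd on the hybridization control scale (-0.48) and with 1 array left out (-0.0947 to 0.91, below 0 without hypoxia 1), and for Pdk4 with 1 array left out (-0.55 to 0.0398, above 0 without hypoxia 3). With 1 array left out the ratio of the Klf9 probe sets differed by -1.08 to 1.07 and that of Mt2 to Mt1 by -0.35 to 2.12. None of these reversed values passed a test, and their cause was not tested. Over 219 alternatives for single members, 215 kept the sign. Leaving out dim probe sets, the trended robust prior and the replicate block do not alter the fitted difference, so there the sign could not change. Most others refit the same arrays, so the count does not measure how sure the signs are. The lists of pathway genes could not be run. Leaving out dim probe sets kept 7 of the 12 members, without Per1, Mt1, both Klf9 probe sets and the second Fkbp5 probe set. Adding an offset before log2 pulls differences towards 0 by construction. An offset of 100 did so for each of the 12 members, so the shrinking itself is no finding. It was large for Mt1 (3.31 to 1.75), which is dim, and small for Tsc22d3 (-2.04 to -1.98), which is bright.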
